A study of Mus musculus with 19 samples.

Results

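Abat and Slc32a1 encode proteins that act on the inhibitory transmitter GABA after it has been made. Each was read by 1 probe set of its own, 17327985 for Abat and 17393851 for Slc32a1, so these were 2 of the 8751 probe sets in the deposited values. The genes were chosen with earlier results of these data known. Their probe sets were taken by symbol. A probe set counted only if the platform annotation gave it 1 gene symbol and that symbol was Abat or Slc32a1. No probe set with several symbols held either gene.

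Abat, 4-aminobutyrate aminotransferase, is the mitochondrial enzyme that breaks GABA down to succinic semialdehyde and passes its amino group to 2-oxoglutarate, in neurons and in astrocytes. Slc32a1, the vesicular GABA transporter VGAT, uses the proton gradient of synaptic vesicles to load them with GABA or glycine and is a defining gene of inhibitory neurons. In the forebrain these include the cortical and hippocampal interneurons and the projection neurons of the striatum. A transcript level says nothing direct about GABA itself, enzyme activity or vesicle filling.

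RNA came from the forebrain of mice on a strain background labelled Mixed BL6/10, housed with 12 h light and 12 h dark each day. The 19 arrays fell into 4 groups. Wild type (WT) had 4 arrays of undisturbed controls and 6 arrays of mice sleep-deprived for 6 h. The EphA4 knockout (KO) had 4 arrays of undisturbed controls and 5 arrays of mice sleep-deprived for 6 h. EphA4 is a receptor tyrosine kinase for ephrins. Wild-type mice were littermates of the knockouts, while the knockout allele, age and sex were not given in the sources used here. Whether every array stands for a different animal is not stated, so the tests reflect sample-to-sample spread, which may be technical. The precision is limited by the number of arrays.

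Levels are log2 values of 1 probe set on 1 array. They are compared between arrays only, since 2 probe sets differ in brightness for the same amount of RNA. Array medians ran from 5.90 to 6.07 and correlations between arrays over all probe sets from 0.981 to 0.993. No probe set carried the symbol Epha4, so the genotype labels could not be checked against it. The annotation gave no gene symbol for 6265 of the 8751 probe sets. A missing symbol therefore does not show that a gene was unmeasured, and shares of all probe sets are not shares of named genes. In bulk forebrain RNA, fewer cells of a type and less RNA per cell cannot be told apart.

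Neither gene changed past the threshold in any of 7 comparisons, an adjusted p of 0.05 in limma's test with Benjamini-Hochberg adjustment over all 8751 probe sets. At an unadjusted p under 0.05 the count was 1 of 14 tests, the Abat interaction, while 5.44% to 15.4% of all probe sets were under it in the 7 comparisons. Abat differed by up to 0.16 between group means on the log2 scale. Slc32a1 group means lay within 0.018 of each other. The residual SD of both genes within groups was 0.11, below the 0.17 median of all probe sets. Among probe sets of similar mean level the median was nearer, 0.139 for Abat and 0.146 for Slc32a1.

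Abat in undisturbed wild-type mice read 7.75, 7.92, 7.71 and 7.86 on the 4 arrays, a mean of 7.81 ± 0.10 (SD, n = 4). In undisturbed knockout mice it read 7.60, 7.62, 7.70 and 7.67, a mean of 7.65 ± 0.05 (SD, n = 4). All 4 knockout controls lay below all 4 wild-type controls, with a gap of 0.0092 between the nearest arrays. Of all probe sets, 1.5% were likewise lower in the knockout controls without overlap, and 2.18% were higher without overlap. The gap was 0.036 after quantile normalization and 0.014 after centring each array on its median.

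The fitted difference of Abat between knockout and wild-type controls was -0.16 ± 0.08 (log2, SE; 95% confidence interval -0.33 to 0.02), with an adjusted p = 0.87 in limma's test. As a ratio this was 0.895, with an interval from 0.793 to 1.01. In this comparison 0% of all probe sets passed, and 5.44% had an unadjusted p under 0.05. The groups were thus apart in every array, but the difference did not pass a test over all probe sets.

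After sleep deprivation, Abat in wild type read 7.67, 7.44, 7.65, 7.92, 7.69 and 7.73, a median of 7.68 and a mean of 7.68 ± 0.16 (SD, n = 6). Of these 6 arrays, 4 lay below all wild-type controls, while replicate 4, at 7.92, lay level with the highest control. Replicate 2, at 7.44, was the lowest of all 19 arrays. The fitted change in wild type was -0.13 ± 0.08 (log2, SE; interval -0.29 to 0.03), with an adjusted p = 0.71 in limma's test where 0% of probe sets passed. Leaving out the low replicate 2 gave -0.077, and leaving out the high replicate 4 gave -0.17.

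In the sleep-deprived knockout, Abat read 7.83, 7.77, 7.77, 7.74 and 7.66, a mean of 7.76 ± 0.06 (SD, n = 5). Of these, 4 of 5 arrays lay above all knockout controls, and replicate 5, at 7.66, fell among them. The fitted change in the knockout was 0.11 ± 0.08 (log2, SE; interval -0.06 to 0.27), with an adjusted p = 0.65 in limma's test. Here 0.263% of all probe sets passed.

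**Figure D1:**
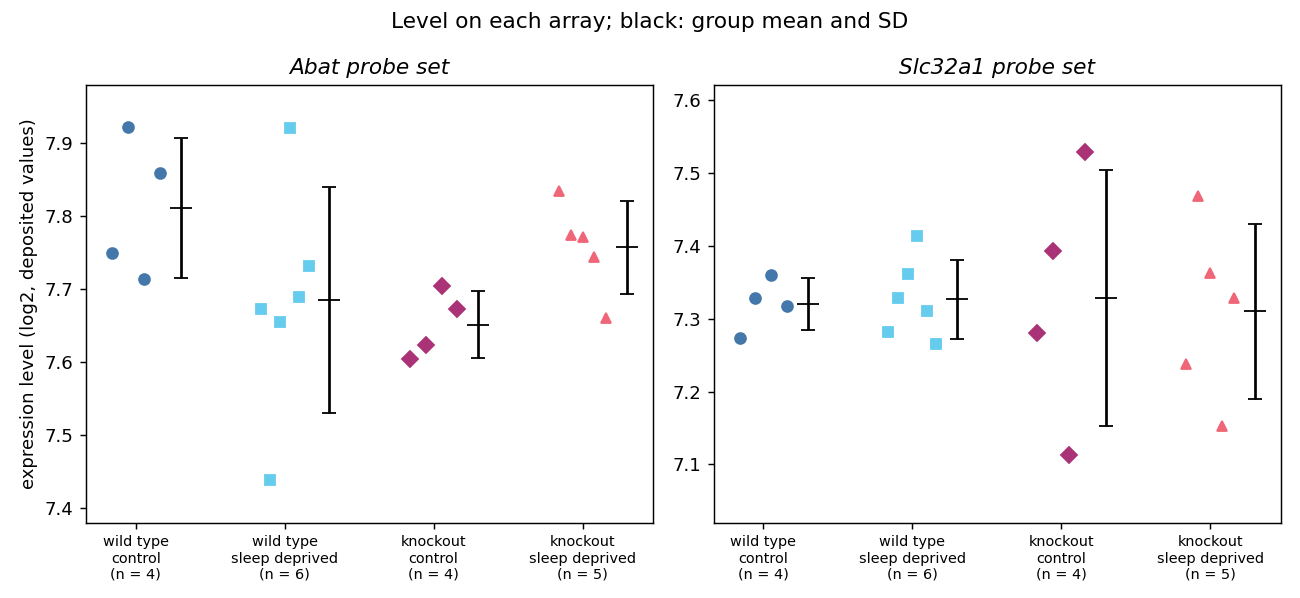
Log2 level of the Abat probe set (left) and the Slc32a1 probe set (right) on each array, by group, with the group mean and SD in black. The panels have different vertical ranges of the same length, since levels of different probe sets are not compared. For Abat the 4 knockout controls lie below the 4 wild-type controls, as for 1.5% of all probe sets. That difference did not pass the adjusted threshold. The Slc32a1 means coincide while its knockout arrays spread more widely.

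The change of Abat thus had a negative sign in wild type and a positive sign in the knockout, and the interaction tests that difference directly. It was 0.23 ± 0.11 (log2, SE; interval 0.0018 to 0.46), with an unadjusted p = 0.048 and an adjusted p = 0.43 in limma's test. Of all probe sets, 11.5% had an unadjusted p under 0.05 in the interaction and 0.0686% passed after adjustment. The sign pattern was frequent too, since 26.6% of probe sets had a lower fitted value after sleep deprivation in wild type and a higher one in the knockout. The difference in Abat response therefore did not stand out from that of many other probe sets.

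The interaction of Abat stayed positive on leaving out each of the 19 arrays, from 0.18 without WT_sleep_deprived replicate 2 to 0.28 without WT_sleep_deprived replicate 4. Its adjusted p then ran from 0.32 to 0.61. Unadjusted, 6 of these 19 fits had a p under 0.05. Of the 8 other alternatives, 4 did in limma's test: p was 0.032 with array weights and 0.038 with only rows of 1 symbol. It was 0.041 with a changed prior variance and 0.042 with the dimmest 40% of rows left out. The others did not: the unadjusted p was 0.12 with quantile normalization (interaction 0.19) and 0.067 with median centring. With the replicate number as a block it was 0.069, and with repeated rows left out 0.0502. Adjusted p over all 27 alternatives ran from 0.29 to 0.61.

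**Figure D2:**
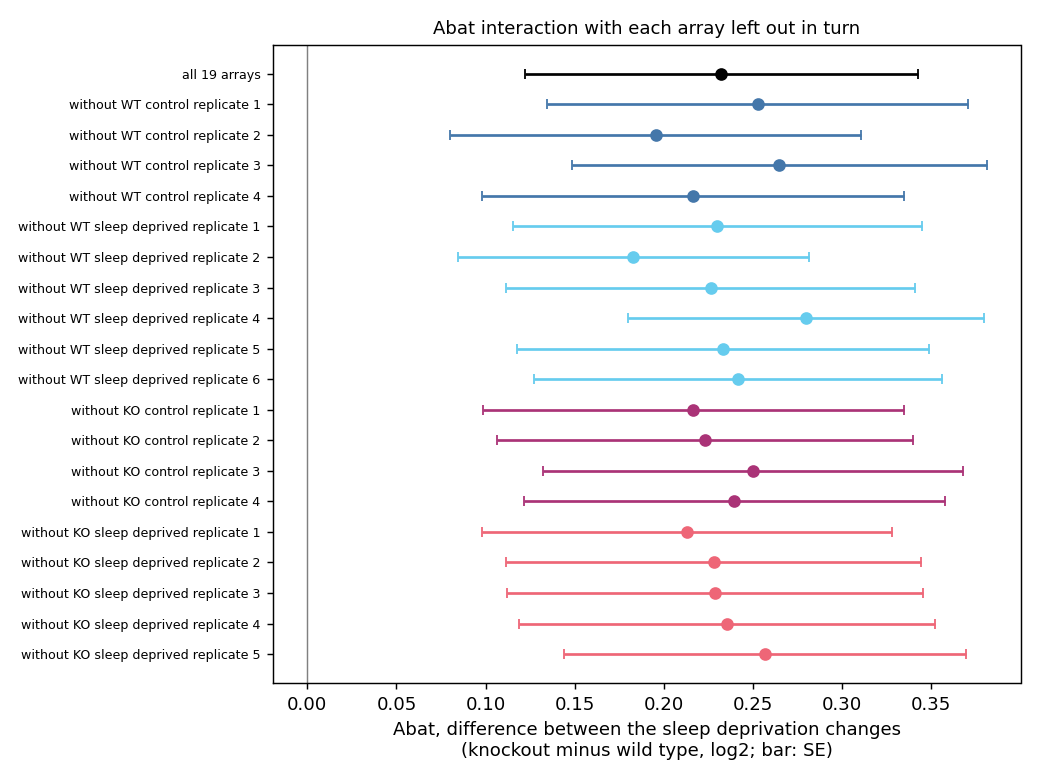
Abat interaction, the sleep deprivation change in the knockout minus that in wild type (log2, bar: SE), with all 19 arrays (black) and without each array in turn, coloured by the group of the array left out. Every estimate lies between 0.18 and 0.28, above 0, and the 2 extremes leave out sleep-deprived wild-type arrays.

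The remaining comparisons of Abat were smaller. Between sleep-deprived knockout and sleep-deprived wild-type mice the fitted difference was 0.07 ± 0.07 (log2, SE; interval -0.08 to 0.22), with an adjusted p = 0.70 in limma's test where 1.68% of probe sets passed. It was 0.023 without WT_sleep_deprived replicate 2 and 0.12 without the group's replicate 4. Averaged over genotypes, sleep deprivation gave -0.010 (interval -0.13 to 0.10; adjusted p = 0.99 in limma's test, 0.263% of probe sets passed). Averaged over conditions, the knockout gave -0.04 (interval -0.16 to 0.07; adjusted p = 0.88 in limma's test, 0.0114% of probe sets passed), and -0.068 and -0.020 without these same arrays in turn. Ordered by mean level, the groups ran from wild-type controls at 7.81 over sleep-deprived knockout at 7.76 and sleep-deprived wild type at 7.68 to knockout controls at 7.65. The array ranges of each neighbouring pair in that order overlapped. The change in wild type and the genotype difference in controls share the 4 wild-type control arrays, so their like sizes are not separate measurements.

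Abat was also set beside other measures of the arrays. The sleep-deprived wild-type array with the lowest Abat, replicate 2, also had the lowest level of Penk in its group, 11.06 against 11.22 to 11.37 on the other 5. The sleep-deprived knockout array with the lowest Abat, replicate 5, likewise had the lowest Penk in its group, 11.15, and the highest median of all arrays, 6.07. Penk, the proenkephalin gene, is abundant in inhibitory projection neurons of the striatum. Slc32a1, the other measured gene of inhibitory neurons, read 7.33 on both of these arrays, near the middle of its groups. These 2 readings were the same to every deposited digit. Penk was not alone in being low there. Atp6v1g2 was also the lowest of its group on both arrays, at 10.76 and 10.78. Gabarap was the lowest of its group on the knockout array, at 9.23, and Map2 on the wild-type array, at 11.77. Kctd8 was the lowest on neither, at 6.43 and 6.26. Low Abat did not go with low Penk in the control groups. The wild-type control with the lowest Abat, replicate 3, had the highest Penk of its group, 11.28. The knockout control with the lowest Abat, replicate 1, also read 11.28 for Penk, above the lowest of its group at 10.94. Over the 19 arrays Abat had a Pearson correlation of 0.45 with Gabarap, -0.42 with Kctd8, 0.35 with Penk, 0.19 with Atp6v1g2 and 0.09 with Map2, the other list genes measured, and of -0.42 with the array median. These describe arrays that share their scaling, and the part of any of them in the Abat values was not tested.

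Slc32a1 in undisturbed wild-type mice read 7.27, 7.33, 7.36 and 7.32, a mean of 7.32 ± 0.04 (SD, n = 4). After sleep deprivation in wild type it read 7.28, 7.33, 7.36, 7.41, 7.31 and 7.27, a median of 7.32 and a mean of 7.33 ± 0.05 (SD, n = 6). The range of the controls lay within that of the sleep-deprived arrays, and the fitted change was 0.0068 ± 0.08 (log2, SE; adjusted p = 0.99 in limma's test). Its 95% confidence interval, -0.15 to 0.17, stands for a ratio between 0.900 and 1.12.

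In undisturbed knockout mice Slc32a1 read 7.28, 7.39, 7.11 and 7.53, a mean of 7.33 ± 0.18 (SD, n = 4). In sleep-deprived knockout mice it read 7.24, 7.47, 7.36, 7.15 and 7.33, a mean of 7.31 ± 0.12 (SD, n = 5). The lowest and the highest of all 19 arrays, at 7.11 and 7.53, were both knockout controls. The fitted change in the knockout was -0.018 ± 0.08 (log2, SE; interval -0.18 to 0.15), with an adjusted p = 0.96 in limma's test. It was -0.09 without KO_control replicate 3 and 0.05 without KO_control replicate 4, so its sign rested on single arrays.

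The genotype differences of Slc32a1 were 0.0083 in controls (interval -0.17 to 0.18) and -0.017 after sleep deprivation (interval -0.17 to 0.13), with an adjusted p = 0.99 and an adjusted p = 0.95 in limma's test. Averaged over genotypes, sleep deprivation gave -0.0057 (interval -0.12 to 0.11), a ratio between 0.920 and 1.08. Averaged over conditions, the knockout gave -0.0041 (interval -0.12 to 0.11), and the interaction was -0.025 (interval -0.25 to 0.20). The intervals of the averaged effects of sleep deprivation and of genotype thus reached about 0.12 in either direction on the log2 scale, without adjustment over all probe sets. A change within these intervals is not excluded. They are not a detection limit, since a call needed an adjusted p under the threshold. The smallest change that would have passed was not tested.

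**Figure D3:**
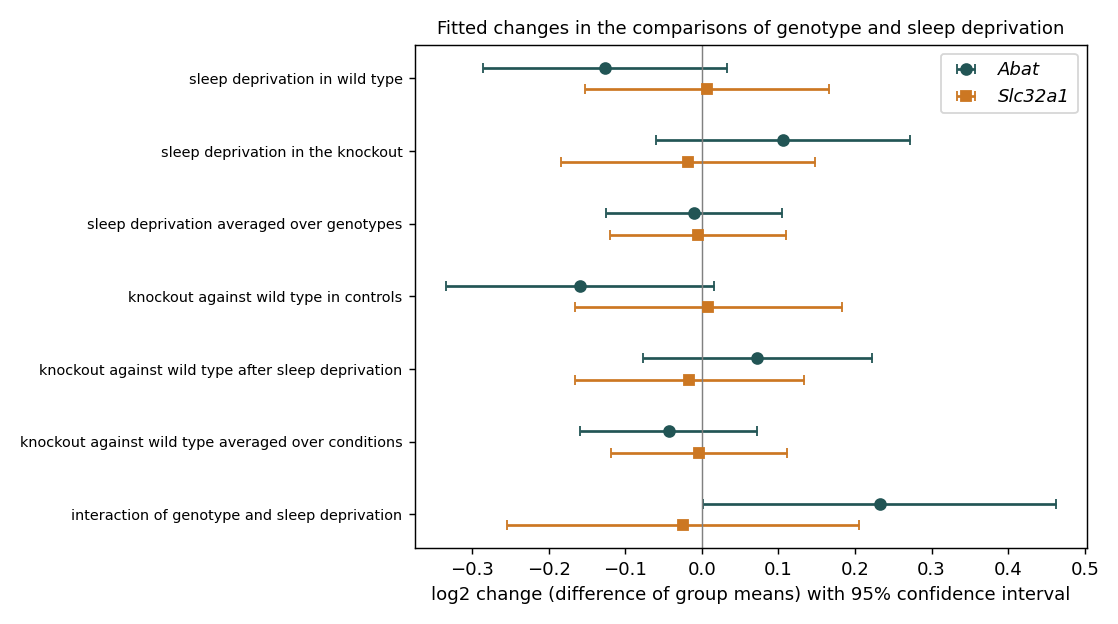
Fitted log2 change (points) with 95% confidence interval (bars) of Abat (circles) and Slc32a1 (squares) in the 7 comparisons. Every Slc32a1 estimate lies within 0.025 of 0, while the Abat estimates run from -0.16 to 0.23 and the Abat interaction is the 1 interval that does not include 0, before adjustment over all probe sets and with the deposited scaling.

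Slc32a1 differed between genotypes in how far its arrays spread, a feature singled out after the values were seen. Its SD within groups was 0.048 in wild type (8 degrees of freedom) and 0.147 in the knockout (7 degrees of freedom), a ratio of 3.05. Of all probe sets, 0.606% had a higher ratio, and the median ratio was 0.995. Abat lay at the other side, with 0.136 in wild type and 0.0566 in the knockout, a ratio of 0.416. For Abat 2.46% of probe sets had a lower ratio. The limma fit gave each probe set 1 spread over all groups. Fitted on the wild-type arrays alone, the SE of the Slc32a1 change fell from 0.076 to 0.061, and fitted on the knockout arrays alone it rose from 0.079 to 0.099. No call changed in either.

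Slc32a1 also had the same value to every deposited digit, 7.33, on 3 arrays: WT_control replicate 2, WT_sleep_deprived replicate 2 and KO_sleep_deprived replicate 5. Such repeats within a probe set were frequent, with 33.7% of all probe sets sharing a value between arrays and 16.5% between 3 or more. Abat had 19 distinct values.

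Abat and Slc32a1 did not vary together over the arrays. Their Pearson correlation was 0.011 over 19 arrays, and 0.046 with group means removed. With each array centred on its median it was 0.35, so the value depended on the scaling. For Abat, Slc32a1 stood at place 399 of 771 named genes ordered by correlation. The correlation is a description of arrays that share a scaling and carries no test.

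**Figure D4:**
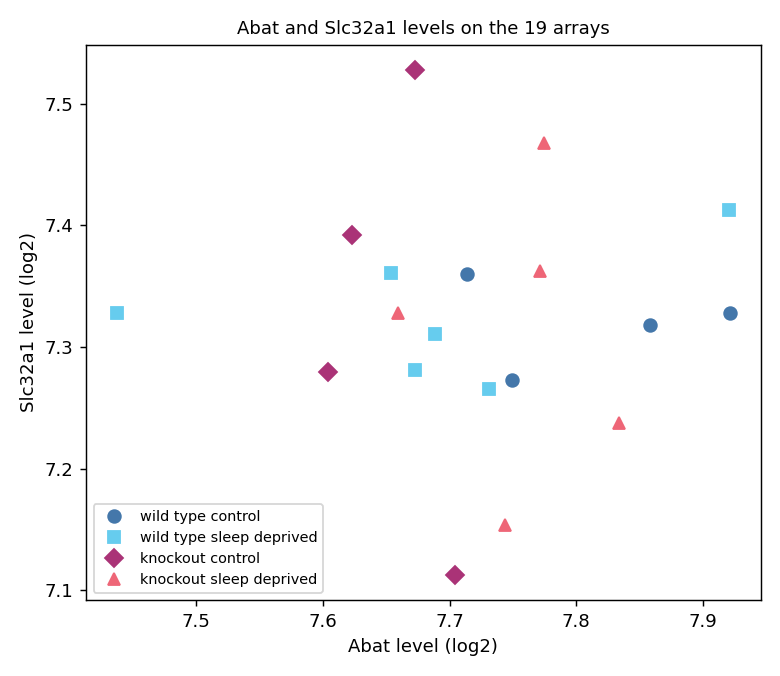
Log2 level of Slc32a1 against that of Abat on each of the 19 arrays, coloured by group. The points show no common trend (Pearson correlation 0.011); the wild-type arrays spread mainly along Abat and the knockout arrays mainly along Slc32a1.

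The named genes most like Abat over the 19 arrays were Rpl17, a ribosomal protein gene (Pearson correlation 0.73), Dcaf7, which encodes a WD-repeat adaptor (0.72), Tpt1, the translationally controlled tumour protein gene (0.68), Mbnl2, a splicing regulator (0.68), and Rpa3, a subunit of replication protein A (0.63). Of these, 4 stayed among the first 5 with group means removed, and Mbnl2 came ninth at 0.63. The most like Slc32a1 were Ube2l3, a ubiquitin-conjugating enzyme (0.67), the pseudogene Lamtor3-ps (0.62), Mrpl48, a mitochondrial ribosomal protein gene (0.60), Ptges3, a co-chaperone of Hsp90 (0.53), and Bod1, which acts in chromosome alignment (0.53). With group means removed, the first for Slc32a1 was Ptges3 at 0.69, and Bod1 came sixth. These were the highest of 771 correlations for each gene. The lowest were nearly as large, -0.72 with Olfr20 for Abat and -0.63 with Ccnl2 for Slc32a1.

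Few other genes of GABA signalling could be set beside these. Of 68 genes for GABA synthesis, breakdown and transport, GABA and glycine receptors and the inhibitory postsynapse, 4 were measured under a symbol of their own: Abat, Slc32a1, Kctd8 and Gabarap. The GABA-synthesising enzymes Gad1 and Gad2, the plasma membrane transporters and the GABA-A receptor subunits were not among them and are not analysed here. Of 174 genes in 18 lists, which added the vesicular proton pump, mitochondrial enzymes and markers of cell types, 7 were measured under a symbol of their own. The other 3 were Atp6v1g2, Penk and Map2. Of the 5 genes other than Abat and Slc32a1, 0 passed in any of the 7 comparisons in limma's test, where 0% to 1.68% of all probe sets passed. At an unadjusted p under 0.05 the count was 0 of 35 tests, beside 5.44% to 15.4% of all probe sets.

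Kctd8, an auxiliary subunit of GABA-B receptors, had the largest fitted changes of the 5, in the interaction and between knockout and wild-type controls (0.22). It did not lead in every comparison, since sleep deprivation averaged over genotypes gave 0.013 for Kctd8 and 0.067 for Penk. Kctd8 also had the largest SE of the 5. Its level was 6.06 ± 0.15 (SD, n = 4) in wild-type controls, 6.20 ± 0.26 (SD, n = 6) in sleep-deprived wild type, 6.28 ± 0.14 (SD, n = 4) in knockout controls and 6.16 ± 0.09 (SD, n = 5) in sleep-deprived knockout mice. Its fitted interaction was -0.26 ± 0.16 (log2, SE; adjusted p = 0.56 in limma's test), opposite in sign to that of Abat. Gabarap, which takes part in the trafficking of GABA-A receptors, had group means from 9.38 to 9.45. Atp6v1g2, a neuronal subunit of the proton pump that drives vesicular loading, had group means from 10.82 to 10.85.

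The markers measured do not check the forebrain label, since 0 of 3 listed forebrain markers were measured under their own symbol. Map2, a cytoskeletal gene of neurons in any brain region, read from 11.75 to 11.80 in the group means and Penk from 11.18 to 11.28. No marker of glutamatergic neurons, astrocytes, oligodendrocytes, microglia, endothelium or choroid plexus was measured under its own symbol. The fitted changes of Map2 and Penk in the 7 comparisons did not pass the threshold. Whether the makeup of the dissected tissue differed between arrays was otherwise not tested.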

How the data were processed

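The deposited values are log2 expression, 1 value per probe set and array. Per the submitters' processing notes the authors used RMA (background correction, quantile normalization and probe summary), oligo and limma, without versions or roles. The genome build is not given in the sources used here. The submitters describe the tables as incomplete. All 8751 probe sets were fitted with limma 3.58.1 in R 4.3.3 as 4 group means on 19 arrays without covariates, since the labels state no pairing. Moderated tests of 7 comparisons had Benjamini-Hochberg adjustment across every probe set. Confidence intervals (95%) come from the same fit and are not adjusted. The fit was tested on simulated data.

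The genes and lists were chosen with earlier results of these data known. The genes named were Abat, Slc32a1, every list gene with its own symbol, and the 5 genes most correlated with each, passing over predicted, clone, microRNA and small nucleolar genes. Where several probe sets named a gene, the brightest was used. The alternatives changed the prior variance, array weights, rows tested, scaling, arrays fitted, a replicate block and single arrays. Plots used matplotlib 3.10.9 in Python 3.11.15.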

Additional observations from a re-analysis of the deposited data

Results flagged for a closer look

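One array stood apart from its group among the 7 genes described. Atp6v1g2, the proton pump subunit, read 10.93 on WT_sleep_deprived replicate 6, and the next highest of the 6 arrays read 10.82. This gap made up 0.646 of the whole range of that group. It was 1 of 28 sets of gene and group examined, and chance flags about 1 in 20. No array of Abat or Slc32a1 was flagged in this way.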

How the results depend on the processing

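No Abat or Slc32a1 comparison passed the threshold in any of the alternatives run (193 values per gene, lowest adjusted p = 0.29 for Abat and 0.74 for Slc32a1). Abat kept its sign in 6 of 7 comparisons; for sleep deprivation averaged over genotypes it ran from -0.034 to 0.014 on leaving out single arrays. Slc32a1 changed sign in 33 of 193 values, all near 0. With median centring its change was -0.021 in wild type and -0.030 for genotype in controls, with quantile normalization -0.0050 and -0.021, and with array weights -0.0065 for genotype in controls and 0.0036 for sleep deprivation averaged over genotypes. On leaving out single arrays, Slc32a1 ran from -0.010 to 0.020 for sleep deprivation in wild type, -0.090 to 0.048 in the knockout and -0.042 to 0.028 averaged. For genotype it ran from -0.058 to 0.080 in controls, -0.056 to 0.022 after sleep deprivation and -0.037 to 0.032 averaged, and for the interaction from -0.097 to 0.042. The cause was not tested.

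With the replicate number as a block, Slc32a1 had 0.0016 for sleep deprivation averaged over genotypes and the Abat interaction was 0.24 (adjusted p = 0.48); the block changed no call. Same-numbered arrays did not deviate together (25 pairs, correlations from -0.22 to 0.08, and 0 of 19 arrays correlated best with their own number). Among alternatives that tested all 8751 probe sets, the counts that passed moved from 23 to between 6 and 43 for sleep deprivation in the knockout, from 23 to between 9 and 39 averaged over genotypes, from 147 to between 36 and 298 for genotype after sleep deprivation, from 6 to between 2 and 41 for the interaction, from 1 to between 0 and 3 for genotype averaged and from 0 to between 0 and 3 in wild type. Restricting the test to the 1308 rows that carry 1 symbol, which is fewer rows, gave 7, 8, 28, 0, 1 and 0, respectively. Averaging several probe sets of a gene was not run, since each gene had 1.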
